A study of Mus musculus with 30 samples.

Results

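The genes described here serve the peroxisomal oxidation of dicarboxylic acids, and they were read in liver RNA of db/db mice that had eaten sebacic acid. Their members were chosen by name: Abcd3, Ehhadh, Hsd17b4, Acaa1b, Scp2, Crot, Acot4, Acot8 and Pex11a. Every probe whose annotated gene symbol was one of these 9 was taken, which gave 16 of the 25697 probes on the array, for 9 of 16593 named genes. The male mice, 6 to 8 weeks old when they were housed and then left to habituate before the diets began, were db/db, which means that both copies of the leptin receptor gene carried the db mutation, in both groups. Their strain was BKS.Cg-m+/+Leprdb/J (stock 000642). The Ctrl group ate chow alone. The SA_15% group ate the same chow with 77.6 g sebacic acid per kg food for 6 weeks, a daily dose that the labels put at about 9 g/kg body weight. Each group held 15 mice. Each liver was hybridized to an array of its own, so that p-values measure the spread between mice. The loss of the leptin receptor's signalling form in all tissues makes both groups obese and diabetic, and no mouse with a working receptor was analysed here.

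Sebacic acid is a straight chain of 10 carbons with a carboxyl group at each end. A round of β-oxidation shortens such a chain by 2 carbons, and successive rounds give suberic acid with 8 carbons, adipic acid with 6 and succinic acid with 4. Peroxisomes of the liver are known for chain shortening of fatty acids that mitochondria handle poorly, dicarboxylic acids among them. Activated acids enter through a membrane transporter. Each round then ends with a bifunctional enzyme and a thiolase. Thioesterases and carnitine acyltransferases release the shortened products for export. Several genes of this pathway in mouse liver are targets of the nuclear receptor PPARα, which binds direct repeats of the half-site AGGTCA spaced by 1 base.

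RefSeq promoter windows (build GRCm38.p6, 250 bases before to 50 after the annotated start) were found for 8 of the 9 genes, with Hsd17b4 as the exception. Abcd3 had 2 of the 9 windows. Both strands were searched for the half-site AGGTCA and for the direct repeat AGGTCANAGGTCA with up to 2 mismatches. The half-site was present in 16.3% of all 32851 promoter windows, the exact repeat in 0.0396% and the repeat with up to 2 mismatches in 3.86%. The windows below belong to the 4 genes with a window read here and at least 1 probe that was higher in SA_15%. They are shown so that the upstream sequence can be read beside the expression values. Each is written 5′ to 3′ on the strand of its gene, with matched letters in capitals.
Acot4, chr12:84038129-84038428, plus strand: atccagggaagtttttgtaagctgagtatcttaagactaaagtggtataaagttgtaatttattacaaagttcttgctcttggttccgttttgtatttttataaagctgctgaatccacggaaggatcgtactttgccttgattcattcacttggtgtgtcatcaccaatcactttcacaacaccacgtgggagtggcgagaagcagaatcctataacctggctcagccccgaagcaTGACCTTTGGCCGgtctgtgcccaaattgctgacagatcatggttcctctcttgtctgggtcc
Scp2, chr4:108118498-108118797, minus strand: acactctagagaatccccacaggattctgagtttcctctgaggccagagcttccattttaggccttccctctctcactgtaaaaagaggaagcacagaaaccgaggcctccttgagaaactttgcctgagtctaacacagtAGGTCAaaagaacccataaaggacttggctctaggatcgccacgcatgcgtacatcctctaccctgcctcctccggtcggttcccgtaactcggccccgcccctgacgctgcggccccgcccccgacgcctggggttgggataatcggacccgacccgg
Pex11a, chr7:79743082-79743381, minus strand: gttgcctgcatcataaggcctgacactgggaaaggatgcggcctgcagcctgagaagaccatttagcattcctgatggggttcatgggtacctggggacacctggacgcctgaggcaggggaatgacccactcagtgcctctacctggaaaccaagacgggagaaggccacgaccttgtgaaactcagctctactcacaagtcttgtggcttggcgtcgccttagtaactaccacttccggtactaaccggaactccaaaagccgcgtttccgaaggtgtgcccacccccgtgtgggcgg
Acaa1b, chr9:119157044-119157343, minus strand: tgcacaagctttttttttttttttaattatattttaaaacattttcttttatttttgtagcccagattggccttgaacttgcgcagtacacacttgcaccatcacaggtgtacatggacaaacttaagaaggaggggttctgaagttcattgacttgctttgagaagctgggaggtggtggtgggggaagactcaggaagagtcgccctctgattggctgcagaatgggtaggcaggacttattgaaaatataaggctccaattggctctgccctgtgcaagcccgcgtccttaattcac
The capitals of Acot4 mark a direct repeat with 2 mismatches that begins 13 bases before the start. On the opposite strand it reads CGGCCAAAGGTCA, and the exact half-site of this window is the last part of that repeat. The capitals of Scp2 mark a single half-site that begins 109 bases before the start. In the windows of Pex11a and Acaa1b, and in those of Abcd3, Ehhadh, Acot8 and Crot, neither motif was found. A match describes letters in the window only, and the lack of one says nothing of sites elsewhere.

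A probe was tested when its detection p-value was under 0.05 on at least 15 of the 30 arrays, and a probe was called higher or lower at an adjusted p under 0.05 (limma, Benjamini-Hochberg over all tested probes). Of the 9 genes, 8 had a tested probe, and these gave 14 tested probes. For each gene the brightest tested probe is named its leading probe. By the leading probes, 4 genes were higher in SA_15% (Hsd17b4, Acaa1b, Acot4 and Pex11a), none was lower and 4 did not pass (Abcd3, Ehhadh, Scp2 and Acot8). Less bright probes of Scp2 also passed, which made 5 genes with any higher probe. Of all 11329 tested probes, 36.6% were called in either direction, with 17.1% higher and 19.4% lower. By leading probes, as the members were counted, 37.5% of 7905 detected genes were called, with 18% higher. The members' 4 calls of 8 genes thus stand against a background in which calls were common. In bulk liver, fewer cells of a type cannot be told apart from less RNA per cell. The median log2 difference of the 8 genes was 0.17, against -0.01 over all tested probes. When arrays were centred on their medians without quantile normalization, 2 of the 8 genes (Acaa1b and Pex11a) were higher. Over all 11329 tested probes, 769 were then higher, against 1942 with quantile normalization. At the stricter rule of the study's methods (p under 0.001 and a fold of 1.3), which called 1.85% of all 25697 probes (1.04% higher and 0.806% lower), 1 probe of Pex11a and 1 probe of Scp2 passed.

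**Figure D1:**
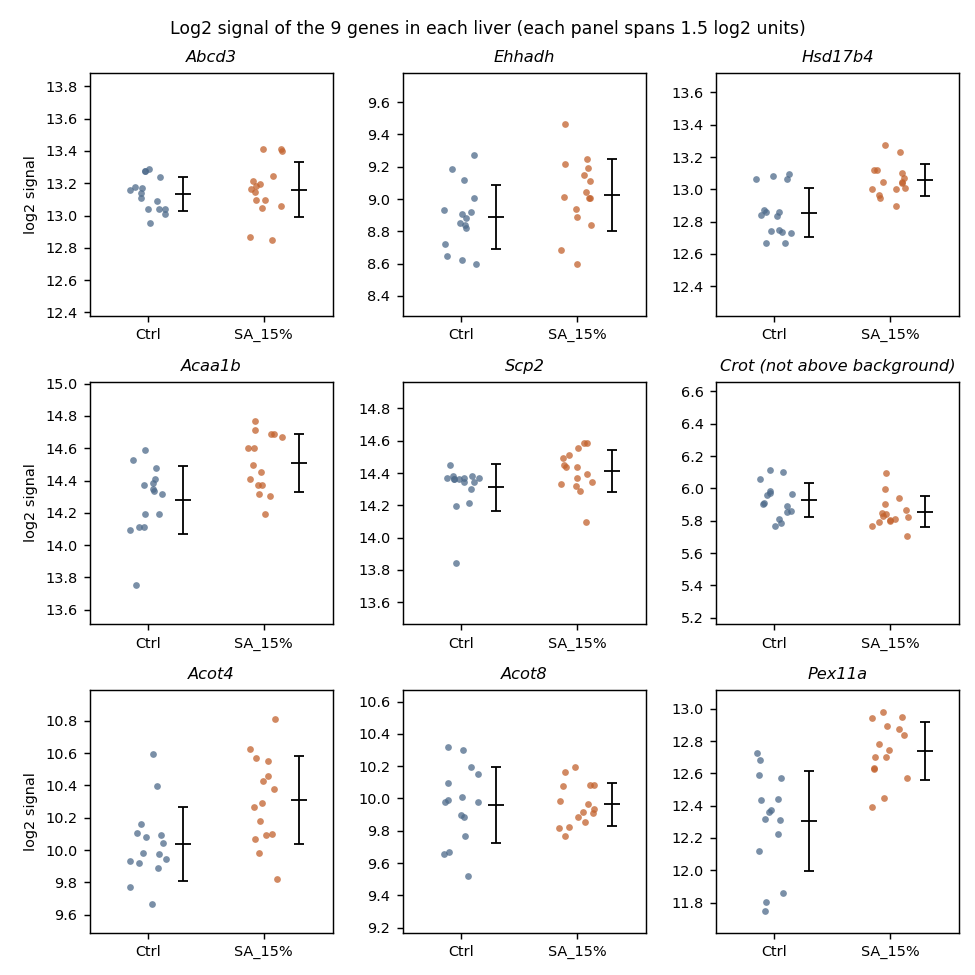
Normalized log2 signal (vertical axis) of the 9 genes in each liver of the Ctrl and SA_15% groups; points are mice, and bars beside them show the mean with SD (n = 15). Each panel spans the same log2 range around its own centre, Scp2 shows its leading probe, and the SA_15% points of Pex11a and Hsd17b4 all lie above the median of Ctrl.

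**Figure D2:**
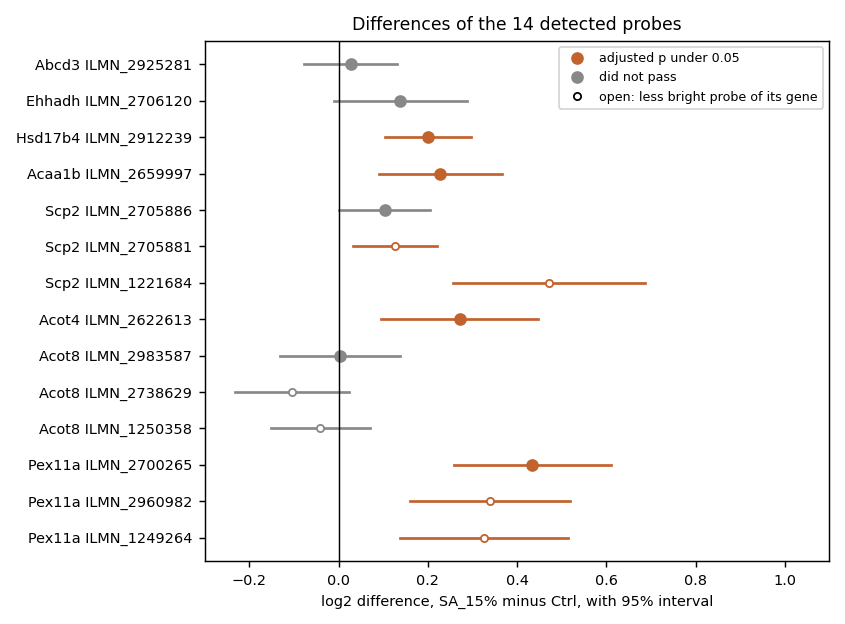
Log2 difference between SA_15% and Ctrl (horizontal axis) of the 14 tested probes with 95% intervals, filled for the leading probe and open for other probes of a gene. The intervals of Pex11a lie above 0 for all 3 probes, while those of Acot8 include 0 for all 3.

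The first step, entry into the peroxisome, did not differ detectably. Abcd3 (PMP70) is the membrane transporter that carries CoA esters of branched-chain, long-chain and dicarboxylic acids into the peroxisome. Its log2 signal ran from 12.95 over a median of 13.14 to 13.29 in Ctrl, and from 12.85 over 13.17 to 13.41 in SA_15%. The SA_15% livers reached both below and above the range of Ctrl, with 2 livers under the lowest control and 3 above the highest. The difference was 0.03 (SE 0.05, 95% interval -0.08 to 0.13, adjusted p = 0.706 by limma, n = 15 per group), and with median centring it was -0.07.

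The bifunctional enzymes come next, each of which hydrates the enoyl-CoA and dehydrogenates the product. Ehhadh, the L-bifunctional protein, is needed in mice for peroxisomal breakdown of medium- and long-chain dicarboxylic acids. Its log2 signal ran from 8.60 over a median of 8.89 to 9.27 in Ctrl and from 8.60 over 9.01 to 9.46 in SA_15%. The ranges began at nearly the same value, and 12 of 15 SA_15% livers lay above the median of Ctrl. The difference of 0.14 (SE 0.07, 95% interval -0.01 to 0.29) did not pass in limma (adjusted p = 0.140). With an error pooled over probes of like brightness, modelled on the study's global error assessment, the same difference passed (adjusted p = 0.0315).

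Hsd17b4 encodes the D-bifunctional protein, which acts mainly on very-long-chain and branched acids and on bile acid precursors. Its log2 signal was 12.66 to 13.09 in Ctrl, with a median of 12.84, and 12.90 to 13.27 in SA_15%, with a median of 13.04. All 15 SA_15% livers were above the Ctrl median, and 11 controls were below the lowest SA_15% liver, although the ranges overlapped. The fold change was 1.15 (interval of confidence 99.9%: 1.02 to 1.29), a log2 difference of 0.20 (SE 0.05, adjusted p = 0.00119 by limma). With median centring the difference was 0.08 and did not pass (adjusted p = 0.293). Set against Ehhadh within each liver, the change was not detectably unequal: the difference of Ehhadh minus that of Hsd17b4 was -0.06 (SE 0.08, adjusted p = 0.440 over 3 pairs, two-sided permutation test).

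The thiolases cleave acetyl-CoA off at the end of each round. Acaa1b, 1 of a pair of closely related 3-ketoacyl-CoA thiolases in the mouse, had a log2 signal of 13.75 to 14.59 in Ctrl, with a median of 14.33, and of 14.19 to 14.77 in SA_15%, with a median of 14.49. The ranges overlapped, with 12 SA_15% livers above the Ctrl median and 7 above the highest control. The fold change was 1.17 (interval of confidence 99.9%: 0.988 to 1.39), a log2 difference of 0.23 (SE 0.07, adjusted p = 0.00866 by limma). The call held with median centring (0.25). Its relative Acaa1a differed by 0.10 (SE 0.04, adjusted p = 0.0488). Within livers the change of Acaa1b exceeded that of Acaa1a by 0.13 (SE 0.07), which did not pass (adjusted p = 0.102 over 3 pairs, two-sided permutation test); with median centring the same comparison gave 0.28 (SE 0.08, adjusted p = 0.00165). The 2 genes are alike in sequence, and cross-hybridization between their probes was not tested.

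Scp2 yields SCPx, which joins a thiolase to a sterol carrier domain, and the shorter sterol carrier protein 2, from a second promoter. Its 4 probes differed in what they showed. The leading probe ILMN_2705886 was at 13.84 to 14.45 in Ctrl (median 14.36) and 14.09 to 14.59 in SA_15% (median 14.44), and its difference of 0.10 (SE 0.05) did not pass (adjusted p = 0.105 by limma), though it passed without SA_15% liver 1 (0.13, adjusted p = 0.0352). ILMN_2705881 differed by 0.13 (SE 0.05, adjusted p = 0.0318), a call lost when any of 3 controls (3, 4 or 6) or either of 2 SA_15% livers (4 or 13) was left out, and its difference was -0.0015 with median centring. ILMN_1221684 differed most: 11.32 to 12.59 in Ctrl (median 12.36) against 12.24 to 13.09 in SA_15% (median 12.67), with 11 SA_15% livers above the highest control. Its fold change was 1.39 (interval of confidence 99.9%: 1.07 to 1.80), a log2 difference of 0.47 (SE 0.11, adjusted p = 0.000725 by limma), and it was 0.34 with median centring (adjusted p = 0.00767). The remaining probe, ILMN_2651412, was above background on none of the 30 arrays.

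The unequal change of the Scp2 probes was then put as a difference within livers. This comparison was added after the values were seen, in which ILMN_1221684 had differed most. Its p-values are therefore no independent support. ILMN_1221684 rose by 0.37 more than ILMN_2705886 (SE 0.08, adjusted p = 6e-05) and by 0.35 more than ILMN_2705881 (SE 0.08, adjusted p = 6e-05), in each case with all 15 SA_15% livers above the Ctrl median of the ratio. The other two probes did not change detectably unequally (0.02, SE 0.03, adjusted p = 0.434; two-sided permutation tests over 3 pairs). All 4 probes carry the same transcript accession in the annotation, and which of the Scp2 products each one binds was not tested. The 2 brighter probes lay close to the upper end of the scale. Before normalization the brightest probe of an array read 14.64 to 15.11 in Ctrl and 15.03 to 15.43 in SA_15% on the log2 scale. Acaa1b was about as bright, with mean log2 signals of 14.28 in Ctrl and 14.51 in SA_15%. The part of this upper end in the smaller differences of the 2 Scp2 probes, or in that of Acaa1b, was not tested.

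Products leave the cycle through acyltransferases and thioesterases. Crot is the peroxisomal carnitine octanoyltransferase, which turns medium-chain acyl-CoA into carnitine esters. Its single probe was detected on none of the 30 arrays, with signals of 45.3 to 68.0 intensity units in Ctrl and 53.0 to 72.4 in SA_15%, so that no level or difference can be given.

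Acot4 is a thioesterase that in the mouse hydrolyses succinyl-CoA in the peroxisome, the CoA ester of the 4-carbon end of the sebacic acid series. Its log2 signal ran from 9.66 over a median of 9.98 to 10.59 in Ctrl and from 9.82 over 10.29 to 10.81 in SA_15%. The ranges overlapped over most of their length, with 13 of 15 SA_15% livers above the Ctrl median and 2 above the highest control. The fold change was 1.21 (interval of confidence 99.9%: 0.973 to 1.498), a log2 difference of 0.27 (SE 0.09, adjusted p = 0.0137 by limma). With median centring it was 0.16 and did not pass (adjusted p = 0.218). Acot4 belongs to a cluster of near-identical thioesterase genes with Acot1, Acot2 and Acot3, which differed by 0.24 (adjusted p = 0.177), 0.50 (adjusted p = 5.34e-05) and -0.03 (adjusted p = 0.846), and cross-hybridization within the cluster was not tested. These are the leading probes, and a less bright probe of Acot1, ILMN_3062267, was higher by 0.51 (SE 0.17, adjusted p = 0.0171). The leading probe of Acot2 was dim, with raw medians of 83.6 intensity units in Ctrl and 131.6 in SA_15%. Its other probes missed the detection rule. Acot1 and Acot3 were added to the named genes after their values were seen.

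Acot8 is a thioesterase of unrelated fold and broad substrate range, from acetyl-CoA to long-chain and dicarboxylic acyl-CoA. Its leading probe ILMN_2983587 read 9.52 to 10.32 in Ctrl (median 9.98) and 9.76 to 10.19 in SA_15% (median 9.93), so that the SA_15% livers lay wholly inside the range of Ctrl. The difference was 0.00 (SE 0.07, 95% interval -0.13 to 0.14, adjusted p = 0.979 by limma). Its other probes differed by -0.10 (ILMN_2738629, adjusted p = 0.200) and -0.04 (ILMN_1250358, adjusted p = 0.583), the latter detected on 8 arrays of each group. Within livers Acot4 rose relative to Acot8 by 0.27 (SE 0.10, adjusted p = 0.0380 over 3 pairs, two-sided permutation test), with 14 of 15 SA_15% livers above the Ctrl median of the ratio. This difference was 0.27 with median centring too (adjusted p = 0.0177).

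**Figure D3:**
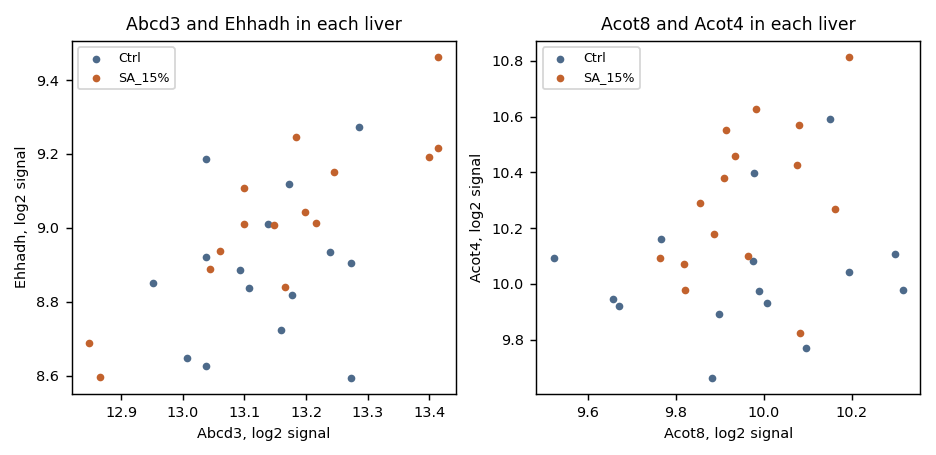
Log2 signal of Ehhadh against Abcd3 (left) and of Acot4 against Acot8 (right), 1 point per liver, coloured by group. In the right panel the SA_15% livers sit higher on the Acot4 axis at like Acot8 signal; in the left panel the SA_15% livers spread along a rising line (r = 0.876).

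Pex11a, a membrane protein that promotes elongation and division of peroxisomes, showed the largest difference among the leading probes. Its log2 signal ran from 11.75 over a median of 12.36 to 12.73 in Ctrl and from 12.39 over 12.75 to 12.98 in SA_15%. All 15 SA_15% livers lay above the median of Ctrl and 8 lay above its highest liver, while 9 controls were below the lowest SA_15% liver. The fold change was 1.35 (interval of confidence 99.9%: 1.09 to 1.68), a log2 difference of 0.43 (SE 0.09, adjusted p = 0.000208 by limma), and it was 0.30 with median centring (adjusted p = 0.0112). The less bright probes rose as well, ILMN_2960982 by 0.34 (adjusted p = 0.00302) and ILMN_1249264 by 0.33 (adjusted p = 0.00600); both missed the threshold with median centring (adjusted p = 0.0844 and 0.0598). Across livers the 3 probes moved together, with r of 0.898 to 0.943 in Ctrl and 0.713 to 0.864 in SA_15%.

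The same livers were often the extremes for several genes. SA_15% liver 8 had the highest signal of its group for 6 of the 8 leading probes (Abcd3, Ehhadh, Acaa1b, Acot4, Acot8 and Pex11a), and SA_15% liver 2 the lowest for 4 (Ehhadh, Hsd17b4, Acaa1b and Pex11a). Among controls, liver 12 was highest for 5 and liver 6 lowest for 4. The arrays of SA_15% livers 8 and 2 had mean intensities of 420.1 and 361.1, within the group's range of 326.6 to 498.3. Array weights fitted by limma were 1.07 for SA_15% liver 8, 0.843 for SA_15% liver 2 and 0.628 for Ctrl liver 6.

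Pairs of member genes were then correlated across livers, within each group, over all 28 pairs. In SA_15%, r was above 0 for all 28 pairs with a median of 0.408, and 6 pairs passed (permutation test, Benjamini-Hochberg over the 56 relations of both groups). These were the 6 pairs among Abcd3, Ehhadh, Acaa1b and Pex11a. Pairs of all detected genes, which share the same arrays and normalization, were not counted in this way. No background share can therefore be set beside these counts. The strongest of the 6 pairs joined Abcd3 and Ehhadh, neither of which had passed between groups. Its r was 0.876 (adjusted p = 0.00280) and its rho 0.835 (adjusted p = 0.00644, permutation tests). Without the 2 livers farthest from the median of Abcd3, r was 0.757. The others were Abcd3 with Acaa1b (r = 0.813) and with Pex11a (0.792), Ehhadh with Acaa1b (0.801) and with Pex11a (0.693), and Acaa1b with Pex11a (0.718). By rank correlation 4 pairs passed in SA_15%.

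In Ctrl, r was above 0 for 23 of 28 pairs with a median of 0.185, and the single pair that passed was Acot8 with Pex11a (r = 0.744, adjusted p = 0.0175; rho = 0.707, adjusted p = 0.0456; r = 0.749 without the 2 farthest livers). For Abcd3 and Ehhadh, r in Ctrl was 0.203. The difference in r between the groups did not pass for any of the 28 pairs in a permutation test added after the values were seen, and the smallest p was 0.0113 for Abcd3 with Pex11a (adjusted p = 0.316). The groups were therefore not shown to differ in how these genes covaried. The SA_15% pairs rested in part on the extreme livers: without livers 2 and 8 the 6 values of r were 0.452 to 0.802, and 1 pair, Abcd3 with Ehhadh, still passed (adjusted p = 0.0437).

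**Figure D4:**
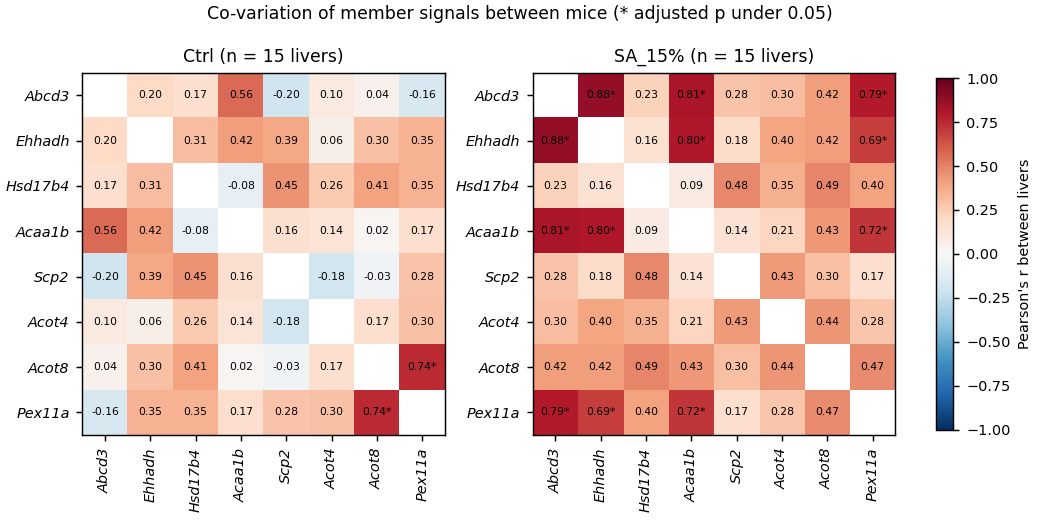
Pearson's r between livers for each pair of the 8 detected genes, in Ctrl (left) and SA_15% (right), n = 15 livers each; colour gives r from -1 to 1 and an asterisk marks an adjusted p under 0.05. In SA_15% the marked squares join Abcd3, Ehhadh, Acaa1b and Pex11a, and in Ctrl the marked squares join Acot8 and Pex11a.

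Over all 30 livers, with group means taken off, the 5 genes most like Ehhadh among 7905 detected genes were Slc25a17 (r = 0.689), Atp5j (0.674), BC005537 (0.655), Fitm1 (0.628) and Abcd3 (0.625). Slc25a17 is the peroxisomal carrier for CoA and other nucleotides. It differed by 0.13 between groups (adjusted p = 0.0569), which did not pass. These correlations share arrays and normalization and are given as a description.

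Genes around the pathway were read from lists of related genes, by the leading probe of each. Over all tested probes 17.1% rose and 19.4% fell, and by leading probes 1423 of 7905 detected genes rose and 1541 fell. Of 14 detected genes of the other peroxisomal β-oxidation list, 3 rose, 2 fell and 9 did not pass, with a median difference of 0.03. Decr2, the peroxisomal dienoyl-CoA reductase, rose by 0.46 (SE 0.13, adjusted p = 0.00615 by limma), and Abcd2, another peroxisomal acyl-CoA transporter, by 0.28 (SE 0.09, adjusted p = 0.0148). The leading probe of Abcd2 was dim, with raw medians of 89.8 intensity units in Ctrl and 122 in SA_15%. Its second probe, ILMN_1243944, differed by 0.19 and did not pass (adjusted p = 0.0501). Acaa1a, given above, was the third gene to rise. Pecr, an enoyl-CoA reductase that works in the direction of chain elongation, fell by 0.46 (SE 0.05, adjusted p = 7.61e-08), and the isomerase Eci2 fell by 0.22 (SE 0.05, adjusted p = 0.000550).

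The peroxins and the other peroxisomal proteins were counted in the same way. Peroxins are the proteins that build peroxisomes and import their enzymes, and Pex11a, given above, was not part of their list. Of the 11 other detected peroxins, none rose by the leading probe and 3 fell. Pex5, the receptor for most matrix enzymes, fell by 0.22 (SE 0.04, adjusted p = 3.89e-05 by limma). Pex11g, a relative of Pex11a, fell by 0.24 (SE 0.07, adjusted p = 0.00973), and Pex13 by 0.13 (SE 0.04, adjusted p = 0.0238). By any tested probe, 1 of these genes had a higher probe and 4 had a lower one. Of 14 other peroxisomal proteins, 2 rose and 5 fell, with a median of -0.10. Baat, which conjugates bile acids, fell by 0.38 (SE 0.06, adjusted p = 1.32e-05), the epoxide hydrolase Ephx2 by 0.20 (adjusted p = 0.000957) and the membrane channel Pxmp2 by 0.23 (adjusted p = 0.00128). Pxmp4 rose by 0.18 (adjusted p = 0.0254). Of these 11 peroxins 27.3% were called in either direction, below the 36.6% of all tested probes and the 37.5% of all detected genes. With median centring, 6 of these peroxins fell and none rose, and of the other peroxisomal proteins 6 fell and none rose. The whole array shifted with this setting: 769 of all tested probes were higher, against 1942 in the main fit. Lower probes in all numbered 2199 in the main fit and 1750 to 3066 over the 13 alternatives.

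**Figure D5:**
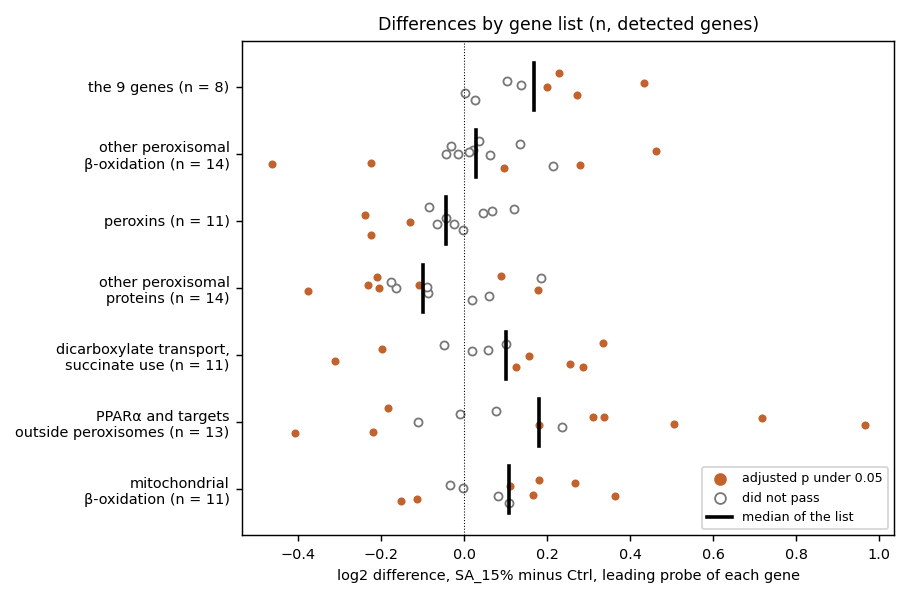
Log2 difference between SA_15% and Ctrl (horizontal axis) of the leading probe of each detected gene in 7 lists (vertical axis); filled points passed, open points did not, and bars mark list medians. The median of the 9 genes' list is 0.17 and those of peroxins (without Pex11a) and of other peroxisomal proteins are -0.04 and -0.10.

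The succinate end of the series was read from 11 detected genes of dicarboxylate transport and succinate use, of which 5 rose and 2 fell (median 0.10). Slc25a10, the mitochondrial dicarboxylate carrier, rose by 0.29 (SE 0.07, adjusted p = 0.00230), and Sugct, which moves CoA from succinyl-CoA to glutarate, rose by 0.33 (SE 0.06, adjusted p = 7.51e-05). The succinate dehydrogenase subunits went both ways: Sdhd fell by 0.31 (SE 0.05, adjusted p = 3.69e-05), Sdhb fell by 0.20 (SE 0.05, adjusted p = 0.00122) and Sdhc rose by 0.13 (SE 0.04, adjusted p = 0.00918). With median centring, which lowered the count of higher probes over the whole array, 1 gene of this list rose and 2 fell.

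PPARα and its targets outside peroxisomes also went both ways. Ppara itself differed by -0.11 (SE 0.07, adjusted p = 0.205). Of 13 detected genes of the list, 6 rose and 3 fell, with a median of 0.18. The hepatokine Fgf21 rose by 0.97 (SE 0.19, adjusted p = 0.000227), Pdk4, a kinase that restrains pyruvate dehydrogenase, by 0.72 (SE 0.15, adjusted p = 0.000273), and the fatty aldehyde dehydrogenase Aldh3a2 by 0.31 (SE 0.06, adjusted p = 0.000167). Creb3l3, a transcription factor of fasting liver, fell by 0.41 (SE 0.05, adjusted p = 4.91e-07), and Angptl4, an inhibitor of lipoprotein lipase, by 0.18 (SE 0.05, adjusted p = 0.00634).

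Mitochondrial medium-chain β-oxidation, the other place where shortened chains can be used, had 11 detected genes, of which 5 rose and 2 fell (median 0.11). Decr1 rose by 0.36 (SE 0.07, adjusted p = 8.69e-05), the short-chain dehydrogenase Acads by 0.17 (SE 0.04, adjusted p = 0.000862), the medium-chain dehydrogenase Acadm by 0.18 (SE 0.06, adjusted p = 0.0129) and the thiolase Acaa2 by 0.27 (SE 0.10, adjusted p = 0.0377). The probes of some of these genes disagreed. For Acaa2, ILMN_2788984 was lower (-0.15, adjusted p = 0.00451), and the remaining probes differed by 0.21 each without passing (adjusted p = 0.158 and 0.139). Etfa, an electron carrier of this pathway and the fifth gene counted as risen (0.11, adjusted p = 0.0374), had 2 less bright probes that were lower (-0.10 and -0.19, adjusted p = 0.0159 and 0.00641). The second probe of Acads differed by -0.06 (adjusted p = 0.546), while that of Acadm was higher (0.24, adjusted p = 0.00354). Hadhb, a subunit of the trifunctional protein, fell by 0.15 (SE 0.05, adjusted p = 0.0240). With median centring, which lowered the count of higher probes over the whole array, 1 gene rose and 3 fell.

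Arrays had mean intensities of 313.9 to 498.3 and 10984 to 11783 detected probes, and the correlation of 2 arrays of a group was 0.983 to 0.996. Of 8 hepatocyte markers, Alb and Tat missed the detection rule. The Alb probe was near background, with raw medians of 75.9 intensity units in Ctrl and 67.3 in SA_15%. It was detected on 12 arrays of Ctrl and 2 of SA_15%. The other 6 markers were detected. Of these 6, Serpina1a (-0.42, adjusted p = 4.73e-08) and Cps1 (-0.27, adjusted p = 0.00264) were lower and Ttr (0.24, adjusted p = 0.000126) was higher, and the summed signal of the 6 was 120334 to 132918 in Ctrl and 122716 to 135734 in SA_15%. Of 9 detected Kupffer cell and macrophage markers 4 were higher (summed signal 982 to 2679 in Ctrl, 1386 to 3171 in SA_15%), of 7 endothelial markers 2 were higher (2854 to 4130 and 3335 to 4870), and of 3 red blood cell markers 2 were higher (5850 to 12892 and 11428 to 21313). None of 4 stellate markers and none of 1 lymphocyte marker passed, and no cholangiocyte marker was detected. By leading probes, 18% of all 7905 detected genes were higher and 37.5% were called in either direction, so these few marker counts stand against common calls. The part of these markers in the members' differences was not tested.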

How the data were processed

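Liver RNA of 15 Ctrl and 15 SA_15% mice was hybridized to Illumina MouseRef-8 arrays, 1 per mouse. The authors scanned them with the BeadArray Reader and deposited, for 25697 probes, the mean signal intensity without normalization and a detection p-value; the submitters' processing notes name GenomeStudio 2009.2. Quantile normalized intensities that the authors deposited separately served as an alternative. Chip positions were not given in the sources used here.

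Intensities were quantile normalized and log2 transformed, after the study's methods, and tested with lmFit and eBayes (limma 3.58.1, R 4.3.3). Probes detected (p under 0.05) on at least 15 of 30 arrays, 11329 in all, were tested, with Benjamini-Hochberg adjustment over them. The pooled error took the running median variance of the 201 probes nearest in signal. Probes were named by the platform's annotation, whose Entrez identifiers were matched to current RefSeq symbols (GRCm38.p6): 23978 probes had 1 symbol and 1719 none. The code was tested on simulated data. Permutation tests used 100000 resamples.

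Groups came from the agent label, since the treatment field reads the same for all 30 samples. The members and gene lists were chosen with earlier results of these data known. Named were all member probes, the 6 genes of each list with the smallest p-values (fewer in the text), Ppara, paralogs, and the 5 genes most like Ehhadh. Alternatives covered normalization, background correction, source table, filters, tests, array weights, a residual component, a replicate block, the rule for several probes, and leaving out each array. Some planned gene comparisons are not reported here. The number of arrays limits the precision.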

Additional observations from a re-analysis of the deposited data

How the results depend on the processing

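No member was called lower under any of 13 alternatives or without any of the 30 arrays. The count of higher members was 2 with median centring, 2 to 5 over the 13 alternatives and 4 to 5 without an array; higher probes in all numbered 769 with median centring, 769 to 2357 over the 13 alternatives and 1832 to 1948 without an array. Median centring also gave the second Scp2 probe (ILMN_2705881) a difference of -0.0015 and the comparison of Acaa1b with Acaa1a a difference of 0.283, and raised the covarying SA_15% pairs to 13; leaving out SA_15% livers 2 and 8, chosen after seeing the data, lowered them to 1. The other peroxisomal β-oxidation list had 2 to 4 higher genes without an array. With median centring, lower peroxins went from 3 to 6, higher genes among other peroxisomal proteins from 2 to 0, and higher genes of the dicarboxylate and mitochondrial lists from 5 to 1 each. The cause of these shifts was not tested. A pairing of livers by replicate number was not established: 10 of 15 same-numbered pairs had deviations correlated above 0.1 (median 0.163, against -0.0233 for unlike numbers) and 4 controls were most like their own number. With the number as a block 4 members were higher, as without it, and no member probe changed its call; in the comparison of Acot4 with Acot8 the paired adjusted p was 0.00897.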
